A study of Bos taurus with 2 samples.

Results

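The genes described here are the unfolded protein response (UPR) and the chaperones of the endoplasmic reticulum (ER), 33 genes given as a list of names, which was drawn up with earlier results of these arrays known. They were found through the accession given with each array probe. A probe was matched to 29 of the 33 genes, and 28 of these gave a ratio between the arrays, out of 19554 genes with a ratio in all, of which 10637 have a symbol and the others are accessions counted as genes of their own. Total RNA of the longissimus thoracis (LT) muscle of Japanese Black fetuses, aged 8.5 months of gestation (day 260 ± 8.3), was hybridized to 2 one-color arrays of the same slide. The low-nutrition (LN) array held the pooled RNA of 4 fetuses of dams fed 60% of their nutritional requirement, and the high-nutrition (HN) array that of 4 fetuses of dams fed 120%. The fetuses of the LN pool were picked for low BW and those of the HN pool for high BW, so that diet and selection by BW cannot be told apart. The dams of both groups were fed these diets before and during gestation and were inseminated with male-sorted semen of the same sire. Each group was measured once, so no replicate check, no test and no p-value was possible, and in whole muscle fewer cells of a type and less RNA per cell cannot be told apart.

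The ER folds secreted and membrane proteins with the help of chaperones and enzymes that form disulfide bonds, and proteins that fail to fold are moved back to the cytosol for degradation. When unfolded proteins accumulate, the sensors ATF6, IRE1 (*ERN1*) and PERK (*EIF2AK3*) start the UPR. ATF6 and the spliced form of XBP1 raise the transcription of chaperones and degradation genes, whereas PERK phosphorylates the initiation factor eIF2alpha, which slows translation and raises the translation of ATF4. A shortage of amino acids also acts on eIF2alpha and ATF4, but through another kinase, GCN2 (*EIF2AK4*), and without the ATF6 and XBP1 branches. ATF4 targets can thus rise in both responses, so their values alone do not tell a shortage of amino acids from the PERK branch. No sequence of a probe or a gene was used here, and whether a probe of *XBP1* distinguishes the spliced transcript is not known.

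The ER chaperones and UPR genes were close to equal in both pools, with most of them slightly higher in the LN pool. Of the 28 genes, 22 were higher and 6 lower in the LN pool, and the median log2 LN/HN was 0.10. Over all 19554 genes the median was 0.00 (-0.0033), and 49.3% were higher. With a log2 LN/HN of 0.32 in size as the threshold, 2 members were higher, *SDF2L1* and *SYVN1*, as were 8.85% of all genes. *PPP1R15A* was the 1 member past the threshold in the other direction, against 9.11% of all genes. No member was past 2-fold in either direction, against 0.997% of all genes. Over the 10637 genes with a symbol alone, 7.8% were past the threshold higher and 8.01% lower, 49.5% were higher and the median was 0.00 (-0.0021). The shares of members past the threshold were near or below the background, and nothing particular to the members is read from them. The share of members higher in the LN pool was 78.6%, above that of all genes, with the difference not tested. Restricted to the 25 members with no limit among their probes, the median was 0.11, with 21 higher, 4 lower, 1 past the threshold higher and 0 lower. Of 14262 genes measured on both arrays within the range of mean log2 signal of these members (4.54 to 12.44), 5.97% were past the threshold higher and 6.51% lower, with a median of 0.00 (0.0018). The 1 member was *SDF2L1*, with a mean log2 signal under 6, where 17.2% of all probes were past the threshold higher.

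The error of the array measurement limits what can be said of a single member. The software gave an error for each signal, and the error of a log2 ratio was computed from those of both arrays. Among members' probes measured on both arrays it was 0.20 at the median, with a range from 0.20 to 0.35. Its lowest value (0.2040) and median (0.2041) almost coincide, so for many probes it is close to a fixed value, not a spread seen between spots. Among 42 probes printed in several spots, the spot-to-spot SD of the log2 ratio was 0.086. In 23 of the 28 members the change was smaller than the mean error of their probes, and in 10 it was smaller than the SD of a spot. Both are values for single probes or spots, whereas the change of a member is often a mean over several probes. The members are represented by 76 probes, 70 measured on both arrays, meaning well above background there, 3 on 1 array only and 3 on neither. For those on 1 array the ratio was taken against the lowest signal well above background of the dim array and is a limit. Several probes of a gene repeat the measurement of the same pooled RNA and are not replicates of the diets.

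**Figure D1:**
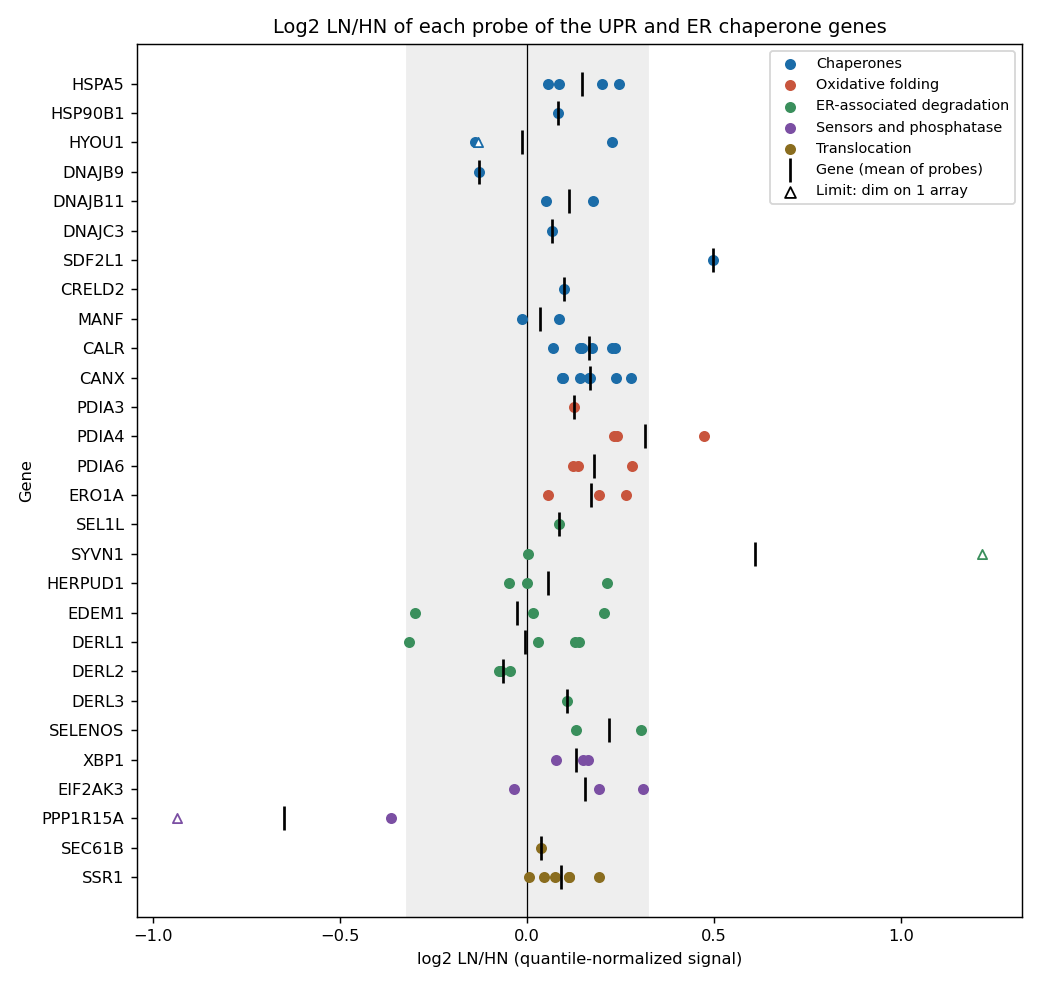
Log2 LN/HN (x axis) of each probe of the 28 genes with a ratio (y axis), where filled points were measured on both arrays, open triangles are limits, black ticks are gene means, and the grey band marks changes below the threshold. Most points lie within the band and above 0, while the farthest points, of *SYVN1* and *PPP1R15A*, are limits from probes that were dim on 1 array.

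*HSPA5* encodes BiP, the main Hsp70 chaperone of the ER lumen and a common readout of the UPR. The log2 signals of its 4 probes, HN before LN, were 12.43 and 12.67, 10.19 and 10.39, 7.83 and 7.89, and 7.07 and 7.16. All 4 probes were thus higher in the LN pool, with a log2 LN/HN between 0.057 and 0.24 and a mean of 0.15 ± 0.09 (SD between probes, n = 4). This is a 1.11-fold difference. *HSP90B1*, the Hsp90 of the ER (GRP94), had log2 signals of 12.40 (HN) and 12.48 (LN), a log2 LN/HN of 0.08 from 1 probe.

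The lectin chaperones calreticulin (*CALR*) and calnexin (*CANX*), which hold newly made glycoproteins until they are folded, have the most probes of the chaperones. The 6 probes of *CALR* were all higher in the LN pool, with log2 LN/HN values from 0.069 to 0.24 and a mean of 0.17 ± 0.06 (SD between probes, n = 6). The brightest of them had log2 signals of 14.13 (HN) and 14.37 (LN). The 7 probes of *CANX* were also all higher, from 0.094 to 0.28, with a mean of 0.17 ± 0.07 (SD between probes, n = 7). The differences of both genes were small, near 1.12-fold, but of the same sign in every probe.

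The cochaperones of BiP had values on both sides of 0. *DNAJB11*, an Hsp40 that delivers substrates to BiP, stood at a log2 LN/HN of 0.11, with probes of 0.050 and 0.18. *DNAJC3*, also called p58IPK, had log2 signals of 9.11 (HN) and 9.17 (LN) (log2 LN/HN 0.07). *DNAJB9*, a cochaperone known as an XBP1 target, was the only one of the 11 chaperones lower in the LN pool by more than the SD of a spot, with log2 signals of 10.17 (HN) and 10.04 (LN) (log2 LN/HN -0.13). *HYOU1*, the large Hsp70-like nucleotide exchange factor of BiP, had probes on both sides of 0. Its brightest probe had log2 signals of 10.08 (HN) and 10.31 (LN) (log2 LN/HN 0.23), the next 6.29 and 6.15 (-0.14), and the dimmest a limit of -0.13, for a mean of -0.01.

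*SDF2L1*, which acts with the Hsp40 proteins of the ER and is induced by ER stress, had the highest log2 LN/HN of the chaperones. Its 1 probe had log2 signals of 4.88 (HN) and 5.37 (LN), a 1.41-fold difference (log2 LN/HN 0.50, software error 0.22). The signal of this probe was low, and after the normexp background correction its log2 LN/HN was 0.15, short of the threshold. It was then below *HSP90B1* and *HSPA5* (both 0.16). That setting used median spot signals and added an offset of 50 to each signal, so that several choices changed at once. *CRELD2* and *MANF*, both secreted factors of the ER stress response, had log2 LN/HN values of 0.10 (1 probe) and 0.04 (2 probes, -0.014 and 0.084).

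All 4 measured genes of oxidative protein folding were higher in the LN pool, with a median log2 LN/HN of 0.18. *PDIA4* (ERp72) had the highest value, 0.32 ± 0.14 (SD between probes, n = 3) or 1.24-fold, just below the threshold. Its probes had log2 signals of 10.13 in HN and 10.37 in LN, 5.89 and 6.36, and 5.45 and 5.68. All of its probes were higher in the LN pool. Its log2 LN/HN was 0.34, past the threshold, with cyclic loess normalization and 0.18 after the normexp background correction. *PDIA6* (0.18 ± 0.09, SD between probes, n = 3) and *PDIA3* (0.12, 1 probe), which assists calnexin and calreticulin, were higher by less. *ERO1A*, the oxidase that reoxidizes the protein disulfide isomerases and is induced by CHOP and by hypoxia, stood at 0.17 over 3 probes (0.056 to 0.26). The 1 probe of its paralog *ERO1B* was not well above background on either array. No probe had an accession matched to *P4HB*, the best-known protein disulfide isomerase, and it was not analysed here.

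In ER-associated degradation (ERAD), 5 of 8 genes were higher and 3 lower in the LN pool, with a median log2 LN/HN of 0.07, but the signs of *DERL1*, *EDEM1* and *HERPUD1* in this count turned with the choice of probes or the processing. The ubiquitin ligase *SYVN1* (HRD1) had a log2 LN/HN of 0.61, but its probes did not agree. Its brightest probe had a log2 signal of 10.64 in both pools (log2 LN/HN 0.00), a second was dim on the HN array and had 3.48 in the LN pool, at least 2.32-fold higher, and the remaining probe was not well above background on either array. With probes well above background on both arrays, *SYVN1* was equal in both pools. *SEL1L*, the partner of this ligase, had log2 signals of 5.77 (HN) and 5.86 (LN) (log2 LN/HN 0.09, 1 probe).

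*HERPUD1*, an ERAD component induced by both the UPR and ATF4, had a log2 LN/HN of 0.05. Its brightest probe had log2 signals of 9.34 (HN) and 9.55 (LN) (log2 LN/HN 0.21), whereas the others gave -0.048 and -0.0016. *SELENOS*, a selenoprotein that anchors the ERAD complex in the membrane, had the second highest value of the class (0.22, probes of 0.13 and 0.30). Its brightest probe had log2 signals of 10.94 in HN and 11.24 in LN. Only *SYVN1*, whose value rests on a limit, was higher, and with probes well above background on both arrays *SELENOS* was the highest. The derlins, membrane proteins of the export channel, were near 0, with *DERL1* at 0.00 (-0.0045, 4 probes from -0.32 to 0.14), *DERL2* at -0.06 (3 probes from -0.075 to -0.046) and *DERL3* at 0.11 from 1 dim probe. *EDEM1*, a lectin that passes misfolded glycoproteins to ERAD and a target of XBP1, stood at -0.03 over 3 probes (-0.30 to 0.21). No direction is given for *DERL1*, *EDEM1* and *HERPUD1*, nor for *HYOU1*, whose sign also turned.

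Of the 6 genes for sensors and for the control of eIF2alpha, 3 had a matched probe, and those of *ERN1*, *ATF6* and *PPP1R15B* were not analysed here. *XBP1*, the transcription factor of the IRE1 branch whose total transcript is also raised by ATF6, was bright and gave the same sign in each of 3 probes. The log2 signals were 12.69 (HN) and 12.85 (LN), 11.89 and 12.03, and 8.45 and 8.53. Its log2 LN/HN was 0.13 ± 0.05 (SD between probes, n = 3). *EIF2AK3* (PERK) stood at a log2 LN/HN of 0.15, with probes between -0.035 and 0.31, and 0.0054 after the normexp background correction.

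*PPP1R15A* encodes GADD34, the subunit that directs protein phosphatase 1 to eIF2alpha and restores translation, and it is a known target of ATF4 and of other stress signals. It was the only member past the threshold in the lower direction, and its log2 LN/HN was -0.65. Its brighter probe had log2 signals of 7.63 (HN) and 7.27 (LN), a 1.29-fold difference (log2 LN/HN -0.36). The other had 3.75 in the HN pool and was dim on the LN array, at least 1.91-fold lower there. Its direction was the same under each of the 12 alternative settings, but the log2 LN/HN was -0.15 after the normexp background correction, short of the threshold. The translocation genes were close to equal, with *SEC61B*, a subunit of the translocation channel, at 0.04 (11.38 in HN and 11.41 in LN) and *SSR1*, a subunit of the translocon-associated complex, at 0.09 ± 0.06 (SD between probes, n = 6).

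The small differences had the same sign in most probes. Of the 70 probes of these genes measured on both arrays, 58 were higher in the LN pool (82.9%), against 51.0% of 30639 such probes in all. Of the 17 members with 2 or more such probes, 10 were higher in every probe (*HSPA5*, *DNAJB11*, *CALR*, *CANX*, *PDIA4*, *PDIA6*, *ERO1A*, *SELENOS*, *XBP1* and *SSR1*) and *DERL2* was lower in every probe. Among all 7139 genes with 2 or more, the share was 29.9% for all higher and 28.7% for all lower. The median log2 LN/HN of the members' probes was 0.06 at a mean log2 signal under 6 (11 probes), 0.13 from 6 to 9 (26), 0.11 from 9 to 12 (23) and 0.20 above 12 (10), while the median of all probes was at most 0.01 in each of these ranges. The 10 brightest probes of the members were all higher in the LN pool, against 51.4% of the 2887 probes of that range. They belong to *HSPA5*, *HSP90B1*, *CALR*, *CANX*, *PDIA6*, *XBP1* and *SSR1*, with several from *CALR* and *CANX*, and are not independent.

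**Figure D2:**
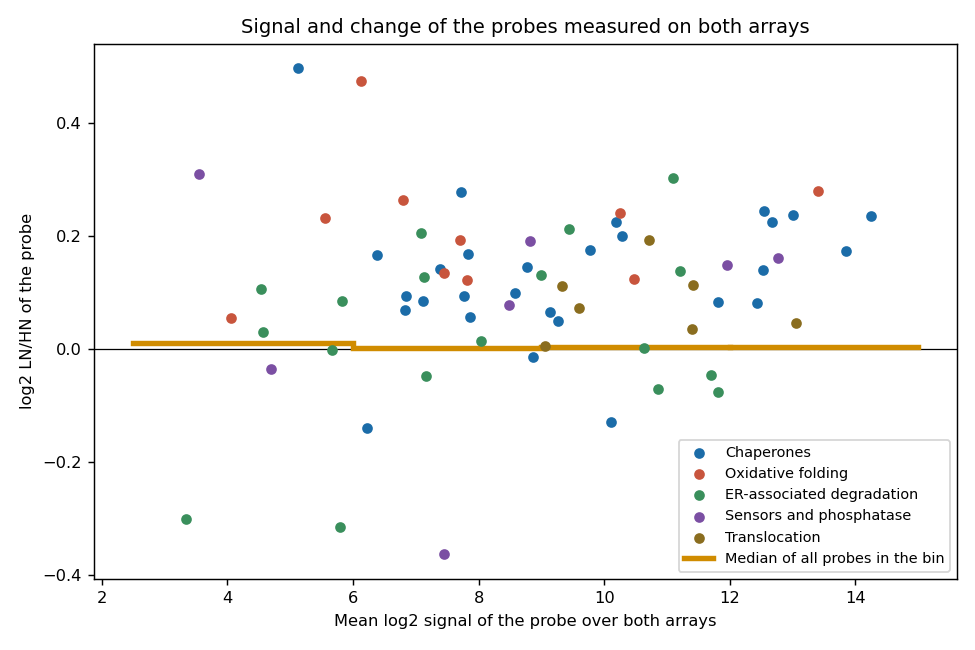
Log2 LN/HN (y axis) of the 70 members' probes measured on both arrays against their mean log2 signal (x axis), colored by role, with the median of all probes in 4 signal ranges as bars. The bars lie near 0 over the whole range, and the members' probes above a log2 signal of 12 are all above 0.

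In 14 of these 17 members, the brightest probe had a higher log2 LN/HN than the mean of the others. The medians were 0.19 for the brightest probes and 0.11 for the others. Among all 7139 such genes the brightest probe was the higher in 53.9%, and in 44.4% of the 3670 genes whose mean was above 0. When the brightest probe alone was taken for each gene, 25 members were higher and 3 lower, with a median log2 LN/HN of 0.13. With that choice 1 member, *SDF2L1*, was past the threshold higher.

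Other genes of the ER, from lists written by hand, were also near 0. Of 30 other folding and degradation genes with a value, 14 were higher and 16 lower, with a median log2 LN/HN of -0.03. In this list *RCN1*, a calcium-binding protein of the ER, was highest (0.34) and past the threshold, whereas *PRKCSH*, a subunit of glucosidase II, and *VCP*, the ATPase that extracts ERAD substrates, were lowest (-0.23 and -0.21). *NPLOC4*, a cofactor of VCP, had a log2 LN/HN of 0.19. The translocon, signal peptidase and oligosaccharyltransferase genes had 20 of 28 higher and a median of 0.06, from *RPN2* (-0.22) and *SEC11C* (-0.19) to *TUSC3* (0.25) and *DDOST* (0.28). No gene of that list was past the threshold.

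For ER export and retrieval, 12 of 18 genes were higher with a median of 0.12, from *SURF4* (-0.15) and *PREB* (-0.14) to *MCFD2* (0.29) and *KDELR3* (0.30), a receptor that returns luminal chaperones to the ER. Of the collagen folding genes, 10 of 17 were higher and the median was 0.04. In this list *P4HA2* (0.28) and *FKBP10* (0.27) were highest, and *P3H1* (-0.14) and *PLOD2* (-0.07) lowest among genes whose probes were all measured on both arrays. *PLOD3*, named after its value was seen, was lower still and past the threshold (-0.44), with 3 probes from -0.99 to -0.14 and 1 that was dim on 1 array and gave no ratio. The members' median of 0.10 lay within the range of the medians of these ER lists, which was from -0.03 to 0.12.

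Chaperones of other compartments served as a further comparison. Of 18 cytosolic heat shock chaperones, 15 were higher in the LN pool, with a median log2 LN/HN of 0.08 and none past the threshold. The highest were *HSPA2* (0.31) and *HSPH1* (0.24), and the lowest *DNAJB4* (-0.22) and *HSPB8* (-0.05). Of 12 mitochondrial chaperones and proteases, 5 were higher, with a median of -0.08, from *HTRA2* and *CLPP* (both -0.21) to *HSPD1* (0.16) and *HSPA9* (0.23). The median of the cytosolic list was thus close to that of the members, with the difference not tested.

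**Figure D3:**
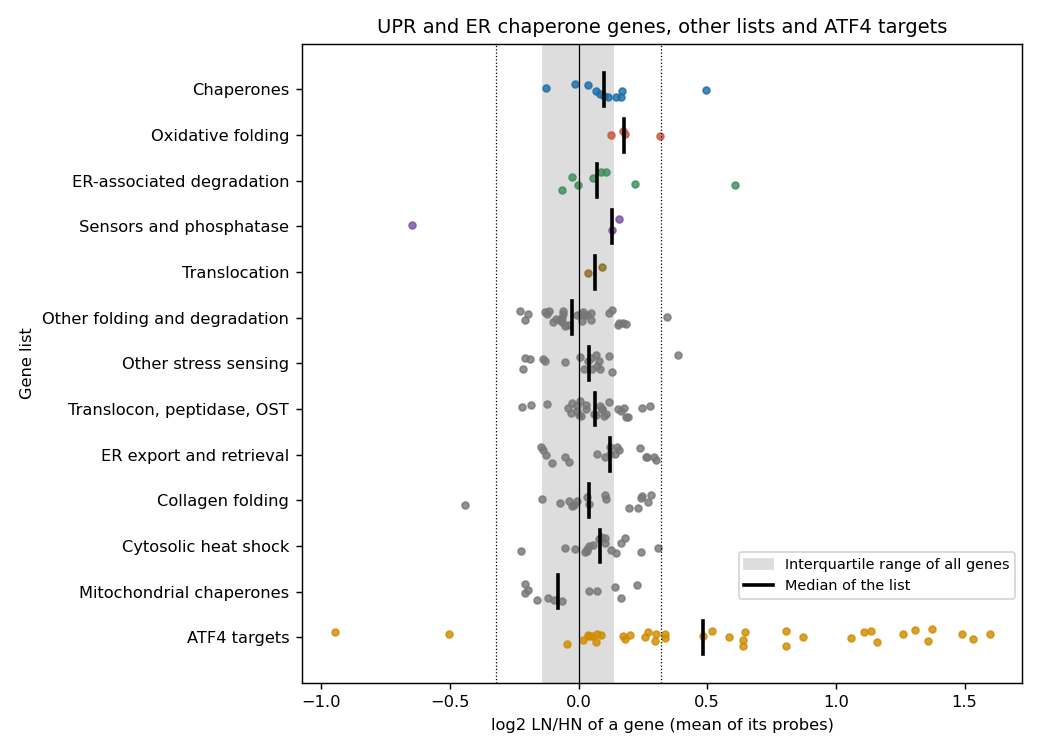
Log2 LN/HN of each gene (x axis) in the 5 role classes of the members (colored), 7 further lists (grey; OST, oligosaccharyltransferase) and the ATF4 targets (orange), with medians as black ticks, the interquartile range of all genes in grey and the threshold of 0.32 dotted. The ATF4 targets have a median of 0.48 and spread to 1.60, whereas the members lie around 0.10.

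The genes listed as ATF4 targets of the amino acid response differed more between the pools than the members did. PERK also acts through ATF4, so the list is not particular to a shortage of amino acids, and no cause was tested. Of 45 such genes in a list that shares none with the members, 39 had a value, 36 were higher in the LN pool, and the median log2 LN/HN was 0.48. At the threshold of 0.32, 22 were higher and 2 lower, and 11 were past 2-fold. This list was written with earlier results of these arrays known, so that its direction is not independent evidence, and with 1 array per pool the difference between the lists was not tested. *MTHFD2* and *PSPH*, enzymes of folate metabolism and serine synthesis, had the highest values (1.60 and 1.53). *MTHFD2* had 1 dim probe, with log2 signals of 3.77 (HN) and 5.37 (LN), and *PSPH* had 2 probes with mean log2 signals of 5.55 (HN) and 7.08 (LN). For *ATF4* the value was 0.26, and for *DDIT3*, which encodes the transcription factor CHOP, it was 0.87, from mean log2 signals of 9.16 (HN) and 10.03 (LN). Of the members known as targets of ATF4 or CHOP, *HERPUD1* was at 0.05, *ERO1A* at 0.17 and *PPP1R15A* at -0.65. The lowest genes of the ATF4 list were *ATF3* (-0.95, from 12.94 in HN to 11.99 in LN) and *DDIT4* (-0.51), which lay on the same side as *PPP1R15A*.

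Among the kinases of eIF2alpha, *EIF2AK1* had a log2 LN/HN of 0.39, past the threshold, as the mean of a pair of probes of which the lower gave 0.0035, and *EIF2AK2* was at 0.05 from 1 probe. No probe had an accession matched to *EIF2AK4*, the kinase that senses amino acid shortage. In the list of other stress sensing genes, 12 of 18 were higher, with a median of 0.04. *MBTPS1*, the protease that cleaves ATF6 in the Golgi, had a log2 LN/HN of -0.22. For the catalytic subunits of protein phosphatase 1, it was -0.21 for *PPP1CA*, 0.13 for *PPP1CB* and 0.07 for *PPP1CC*.

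**Figure D4:**
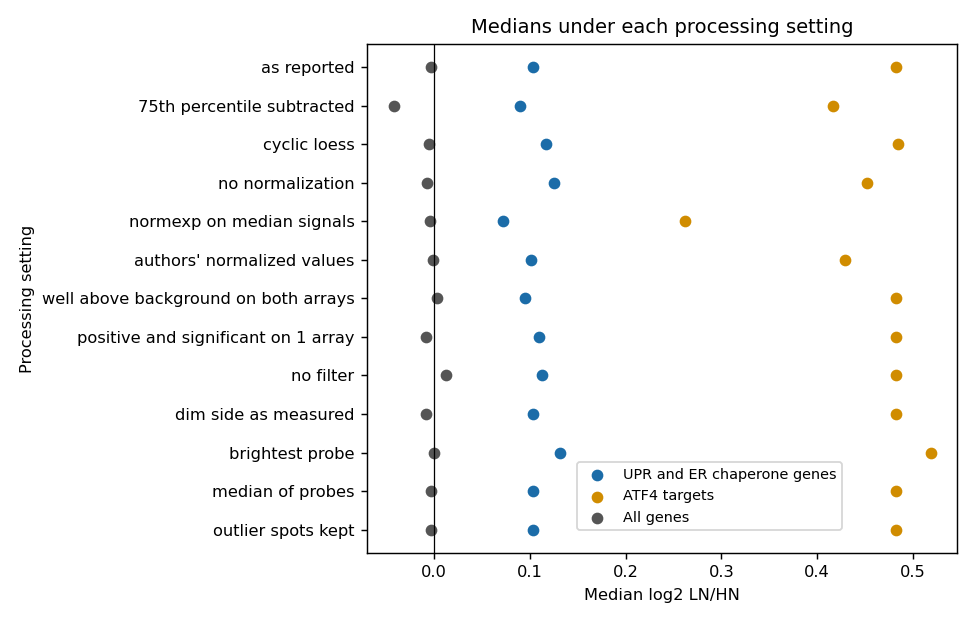
Median log2 LN/HN (x axis) of the members, the ATF4 targets and all genes under the processing as reported and 12 alternative settings (y axis). The members' median stays between 0.07 and 0.13 and the ATF4 targets' between 0.26 and 0.52.

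Markers of cell types were compared because the tissue was whole muscle. All 10 skeletal muscle markers with a matched probe were detected, and 8 were lower and 1 higher in the LN pool, with a median log2 LN/HN of -0.09. The higher one, *MYH8*, a developmental myosin heavy chain, was past the threshold (0.35). *MYLPF*, *TTN* and *PAX7* had no matched probe. Connective tissue markers were higher in the LN pool for 7 of 8 genes, with a median of 0.29, and their signals summed to 47913 (HN) and 60708 (LN), a ratio of 1.27. Of 5 neutrophil markers with a value, 4 were higher, with a ratio of summed signals of 1.90 (600.5 in HN and 1143.9 in LN). The highest of them, *MPO* (3.11), is a limit from 1 probe that was dim on the HN array. Endothelial markers were all lower (6 of 6, median -0.24, summed signal 7125 in HN and 5778 in LN), as were 5 of 6 macrophage markers (median -0.32, 7260 and 5765).

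For plasma cells, which have an extended ER, 2 of 4 markers were higher and the median was 0.00 (0.0033), with summed signals of 770.0 in HN and 744.5 in LN. Of the defining markers, *POU2AF1* was not detected and *TNFRSF17* had no matched probe. The 4 erythroid markers with a value were near equal (median -0.04), and *SLC4A1* and *EPB42* gave no ratio. Among adipocyte markers 2 of 3 were higher (median 0.22, 460.7 and 570.1), and *LEP* gave no ratio. The part of these markers in the values of the UPR genes was not tested.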

How the data were processed

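The authors pooled total RNA of 4 fetuses per group, hybridized each pool to 1 Agilent Bovine (v2) array and deposited the spot intensities from Feature Extraction 11.0.1.1, background-corrected and without normalization between arrays. The authors also deposited GeneSpring GX values after quantile normalization, on a log2 scale as judged from the values, and flags per spot. Here, log2 intensities of 43803 spots were normalized by the quantile method (limma 3.58.1, R 4.3.3), 13 spots with an outlier flag were removed, none of them of a member, and spots of a probe were averaged (Python 3.11.15, pandas 2.3.3, numpy 2.4.6, matplotlib 3.10.9). Probes well above background on 1 or both arrays were kept. A dim value on the other array was replaced by the lowest signal that passed there (log2 2.27 for HN, 2.82 for LN), unless its own was higher. A gene is the mean of its probes. Symbols came from the probes' accessions by way of an ARS-UCD2.0 gene table, used for names only (26742 of 43652 probes, 12603 symbols). The software marked 74.5% of spots as well above background on HN and 70.9% on LN, and no spot was saturated. The number of arrays limits the precision. The normalization and the averaging to genes were checked on simulated data, with probes well above background on both arrays. The replacement of dim values was not part of that check. Members and lists were chosen with earlier results of these data known. The rule for naming genes was every member and, of each other list, the 2 highest and 2 lowest genes measured on both arrays, with *ATF4*, *DDIT3* and *EIF2AK4*. *EIF2AK2*, *PPP1CC* and *PLOD3* were named outside this rule, as were single markers of cell types. Each value was recomputed under 12 alternative settings. One marker is not reported here.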

Additional observations from a re-analysis of the deposited data

How the results depend on the processing

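The members' median log2 LN/HN stayed between 0.07 and 0.13 over 12 settings, and 22 to 25 members were higher. With the brightest probe of each gene, 3 members were lower instead of 6. At the threshold of 0.32 in log2 LN/HN, 0 members were higher and 0 lower after the normexp background correction. This setting took median spot signals, chosen after seeing that the deposited data hold no mean spot signals. It also added an offset of 50 to each signal, which by itself makes the ratios of dim probes smaller in size. A count of 1 higher was found with the authors' normalized values, with probes well above background on both arrays, with probes positive and significant on 1 array, without a filter and with the brightest probe. With cyclic loess it was 3, *PDIA4* (0.34) being added. The median of the ATF4 targets was 0.26 after normexp. That of the mitochondrial list turned from -0.08 to 0.045 with the brightest probe and to 0.0023 after normexp. The median of the other folding and degradation genes ranged from -0.027 to 0.018, and that of the collagen folding genes from -0.018 to 0.13. The signal type, the background method and the offset were not varied apart in the normexp setting. The cause of the other shifts was not tested. No setting moved the median of all genes by over 0.1. Of 336 values of single members under these settings, 308 moved by less than the median SD between probes of a gene (0.099), 28 by more, and no member past the threshold changed sign. *SYVN1* ranged from 0.00 (0.0002) to 0.66, *PPP1R15A* from -0.75 to -0.15 and *SDF2L1* from 0.15 to 0.53. Dim probes limited *SYVN1*, *PPP1R15A* and *HYOU1*. No paired analysis was possible because each group has 1 array.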
